A study of Mus musculus with 12 samples.

Results

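The genes described here are 9 interferon response genes, Irf7, Ifit1, Ifit3, Isg15, Usp18, Bst2, Ifitm3, B2m and Tap1, out of 23781 gene symbols in the hippocampal RNA-seq tables. They were picked by name as well-known members of the antiviral response, and their reads were summed over the RefSeq transcript entries of each symbol. All 12 animals were male C57BL/6 mice that had received an AAV5 vector in both hippocampi at 10 weeks of age, in 6 deposits per mouse, and the hippocampi were taken 10 weeks later. The vector carried green fluorescent protein (GFP) under a synapsin promoter, which is active in neurons. In the GFP-miR-9sp and GFP-miR-34sp groups the GFP transcript also carried a sponge of 8 imperfect binding sites for miR-9 or miR-34, which competes with natural targets for the microRNA. The GFP Ctrl mice received the GFP vector without sponge sites, and each of the 2 experiments had its own GFP Ctrl mice. There were 3 mice in each of the 4 groups. Every mouse carried the vector, so the values below give levels in injected hippocampus and no comparison with uninjected tissue.

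Type I interferons are secreted when a cell senses foreign nucleic acid. They bind the receptor made of Ifnar1 and Ifnar2, and the signal passes through factors such as Stat2 and Irf9 to promoters that hold the interferon-stimulated response element, in which the letters GAAA are repeated. The genes that follow block viral translation and entry, tag proteins with Isg15 or present viral peptides on MHC class I. In brain, microglia, endothelial cells, astrocytes and neurons can all mount this response.

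The promoter windows of 3 members are shown because they hold the repeated element through which interferon is known to switch on such genes. The RefSeq table (build GRCm38.p6, 250 bases before to 50 after the transcription start) held a window for 8 of the 9 members, all but Usp18. The motif searched was GAAANNGAAA, or TTTCNNTTTC where it lies on the other strand, with overlapping matches counted, and the matches are in capitals.
Ifit1, chr19:34640639-34640938, plus strand: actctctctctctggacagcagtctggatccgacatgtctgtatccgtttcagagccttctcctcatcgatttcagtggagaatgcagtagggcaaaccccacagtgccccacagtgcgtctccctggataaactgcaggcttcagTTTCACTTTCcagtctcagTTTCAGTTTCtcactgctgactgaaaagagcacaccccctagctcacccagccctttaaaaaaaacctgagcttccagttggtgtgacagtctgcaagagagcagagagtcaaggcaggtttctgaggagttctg
Ifit3, chr19:34583279-34583578, plus strand: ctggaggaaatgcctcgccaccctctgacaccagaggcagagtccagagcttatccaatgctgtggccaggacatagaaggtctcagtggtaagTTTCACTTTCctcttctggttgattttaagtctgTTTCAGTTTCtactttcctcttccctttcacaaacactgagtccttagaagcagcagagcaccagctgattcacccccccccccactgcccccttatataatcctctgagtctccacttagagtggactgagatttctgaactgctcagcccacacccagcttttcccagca
Isg15, chr4:156200769-156201068, minus strand: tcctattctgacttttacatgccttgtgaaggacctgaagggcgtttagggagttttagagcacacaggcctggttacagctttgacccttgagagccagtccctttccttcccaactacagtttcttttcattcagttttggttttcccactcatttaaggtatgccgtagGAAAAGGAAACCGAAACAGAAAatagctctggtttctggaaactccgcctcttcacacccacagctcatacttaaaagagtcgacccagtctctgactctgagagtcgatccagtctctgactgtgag

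The motif was found in 6 of the 8 windows, those of Ifit1, Ifit3, Isg15, Bst2, Ifitm3 and B2m. It was in 3.44% of all 32851 windows of the table. Isg15 had 3 overlapping matches, starting 78, 72 and 66 bases before the start site, and Ifit1 had 2, starting 104 and 85 bases before it. No match was found in the windows of Irf7 and Tap1, which says only that these letters are not in these 300 bases. A match describes the sequence and was not tested as a binding site in these mice.

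Totals of 17279620 to 24428477 reads per mouse stood behind the miR-9 experiment and 11029604 to 16934133 behind the miR-34 experiment. Levels are given as CPM, the reads of a gene per 1000000 reads of the library after TMM scaling, and 7 of the 9 members could be measured in this way. The labels name hippocampal neurons as the cell type, but the tissue was whole hippocampus, and markers of microglia (12 of 14 above the read minimum), astrocytes (10 of 10), endothelium (7 of 12) and choroid plexus (10 of 12) were present beside those of neurons (9 of 10). In such bulk samples more RNA per cell cannot be told apart from more cells of a type. The number 8 occurs among the GFP Ctrl mice of both experiments, and the labels do not say whether it is 1 animal.

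Irf7, the transcription factor that amplifies type I interferon production, had 0 reads in all 12 mice, in each of its 3 transcript entries. A count of 0 allows up to 3 reads, or 0.12 to 0.278 CPM depending on the mouse. Tap1, a subunit of the peptide transporter that loads MHC class I, had 12 reads in all, between 0 and 3 per mouse, in 2 entries. Neither could be tested. Symbols with several entries were measurable less often throughout the table: 57.9% of the 19044 genes with 1 entry had a mean above 10 reads, against 31.6% of the 2068 genes with 3 or more. How reads shared by overlapping entries were counted is not given in the sources used here, so the zeros of Irf7 cannot be read as absence of its RNA. Each of the other 7 members had 1 entry.

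Per kilobase of transcript, B2m, the light chain of MHC class I, was the most abundant member, with a median of 129 CPM per kilobase over the 12 mice. Ifitm3, which blocks entry of viruses at the endosome, followed at 16.8, then Ifit3 at 6.07, Bst2 at 4.64, Isg15 at 2.47, Ifit1 at 1.58 and Usp18 at 0.889 on the same scale. The ranges over mice of B2m (115 to 152) and Ifitm3 (11.5 to 21.6) did not meet, whereas each of the other neighbours in this order overlapped. The highest mouse exceeded the lowest 1.33-fold for B2m and 3.11-fold for Ifit1.

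**Figure D1:**
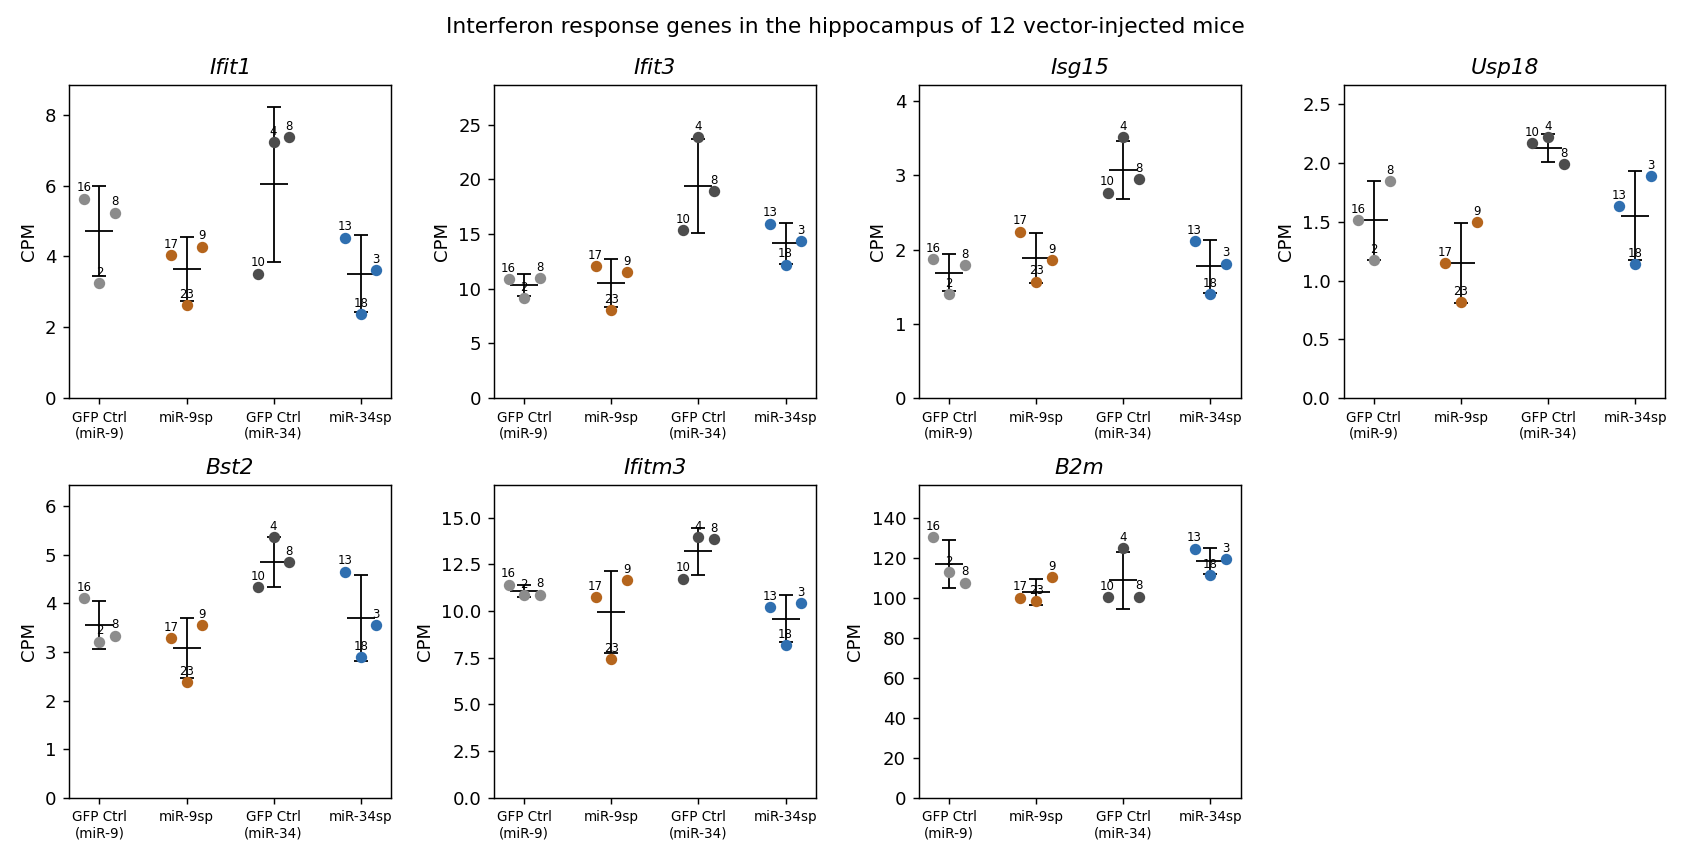
CPM (linear axis from 0) of the 7 measured interferon response genes in each mouse, by group. Points are mice with their numbers, the wide bar is the group mean and the error bar is 1 SD (n = 3). The GFP Ctrl mice of the miR-34 experiment sit above all other groups for Isg15, from 2.77 to 3.52.

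Ifit1 and Ifit3 encode proteins that bind viral RNA and hold back its translation. Ifit1 in the miR-9 experiment was at 5.63, 3.25 and 5.23 CPM in GFP Ctrl mice 16, 2 and 8, and at 4.04, 2.61 and 4.28 in GFP-miR-9sp mice 17, 23 and 9. In the miR-34 experiment it was at 3.51, 7.22 and 7.37 in GFP Ctrl mice 10, 4 and 8, and at 4.53, 2.37 and 3.62 in GFP-miR-34sp mice 13, 18 and 3. The groups overlapped in both experiments, and GFP Ctrl mouse 10 lay below 2 of the 3 sponge mice. Ifit3 was at 10.9, 9.13 and 11.0 CPM in the GFP Ctrl mice and at 12.1, 8.02 and 11.5 in the GFP-miR-9sp mice, in the same order of mice. It was at 15.3, 23.9 and 18.9 in the GFP Ctrl mice of the miR-34 experiment and at 15.95, 12.2 and 14.3 in the GFP-miR-34sp mice. Again the groups overlapped within each experiment, but all 6 mice of the miR-34 experiment lay above all 6 of the miR-9 experiment. How many genes separated the 12 mice in this way was not counted. Between the GFP Ctrl sets alone, 22.3% of all genes were higher without overlap in the miR-34 experiment. Ifit3b, a near copy whose promoter window shares a run of 169 bases with that of Ifit3, ran beside it with 1.10 to 1.39 Ifit3 reads for each Ifit3b read. The counts of these copies are uncertain where reads fit both.

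Isg15 is a ubiquitin-like protein joined to other proteins during infection, and Usp18 is the protease that removes it and also dampens the interferon receptor. Isg15 was at 1.88, 1.40 and 1.80 CPM in GFP Ctrl mice 16, 2 and 8 and at 2.24, 1.57 and 1.85 in GFP-miR-9sp mice 17, 23 and 9, which overlap. In the miR-34 experiment GFP Ctrl mice 10, 4 and 8 were at 2.77, 3.52 and 2.95, and GFP-miR-34sp mice 13, 18 and 3 were at 2.11, 1.40 and 1.81. Here every sponge mouse lay below every GFP Ctrl mouse. These levels rest on only 16 to 47 reads per mouse. Usp18 was at 1.52, 1.18 and 1.85 in the GFP Ctrl mice and 1.15, 0.813 and 1.49 in the GFP-miR-9sp mice, with overlap. It was at 2.17, 2.22 and 1.99 in the GFP Ctrl mice of the miR-34 experiment and 1.63, 1.14 and 1.89 in the GFP-miR-34sp mice, without overlap, on 13 to 38 reads per mouse.

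Bst2, or tetherin, holds budding virus at the cell membrane. It was at 4.11, 3.21 and 3.34 CPM in the GFP Ctrl mice and 3.29, 2.38 and 3.56 in the GFP-miR-9sp mice. In the miR-34 experiment it was at 4.34, 5.37 and 4.85 in the GFP Ctrl mice and 4.65, 2.90 and 3.55 in the GFP-miR-34sp mice, and both pairs of groups overlapped. Ifitm3 was at 11.4, 10.8 and 10.9 in GFP Ctrl mice and 10.8, 7.44 and 11.6 in GFP-miR-9sp mice, and mouse 23 was the one that stood low. It was at 11.7, 14.0 and 13.9 in the GFP Ctrl mice of the miR-34 experiment and at 10.2, 8.16 and 10.4 in the GFP-miR-34sp mice, without overlap.

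B2m kept the narrowest range. It was at 131, 113 and 108 CPM in GFP Ctrl mice 16, 2 and 8 and at 100.2, 98.5 and 110.4 in GFP-miR-9sp mice 17, 23 and 9. In the miR-34 experiment it was at 100.5, 125 and 100.7 in GFP Ctrl mice 10, 4 and 8 and at 125, 112 and 119 in GFP-miR-34sp mice 13, 18 and 3. The groups overlapped in both experiments, and in the miR-34 experiment the sponge mice were on the higher side.

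The same mice stood low or high for most members. GFP-miR-9sp mouse 23 was the lowest of its experiment for 6 of the 7 measured members, and GFP-miR-34sp mouse 18 was the lowest of its experiment for 6 of 7. GFP Ctrl mouse 4 was the highest of the miR-34 experiment for 6 of 7, and GFP Ctrl mouse 16 the highest of the miR-9 experiment for 3. Total depth did not follow this order in the miR-34 experiment, where mouse 4 had 11029604 reads and mouse 18 had 11650694, the lowest totals of the 12 mice. In the miR-9 experiment mouse 23 also had the lowest total. How often each mouse was the lowest or highest over all genes was not counted. The members co-vary, as given below, so 6 of 7 are not 6 separate observations.

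**Figure D2:**
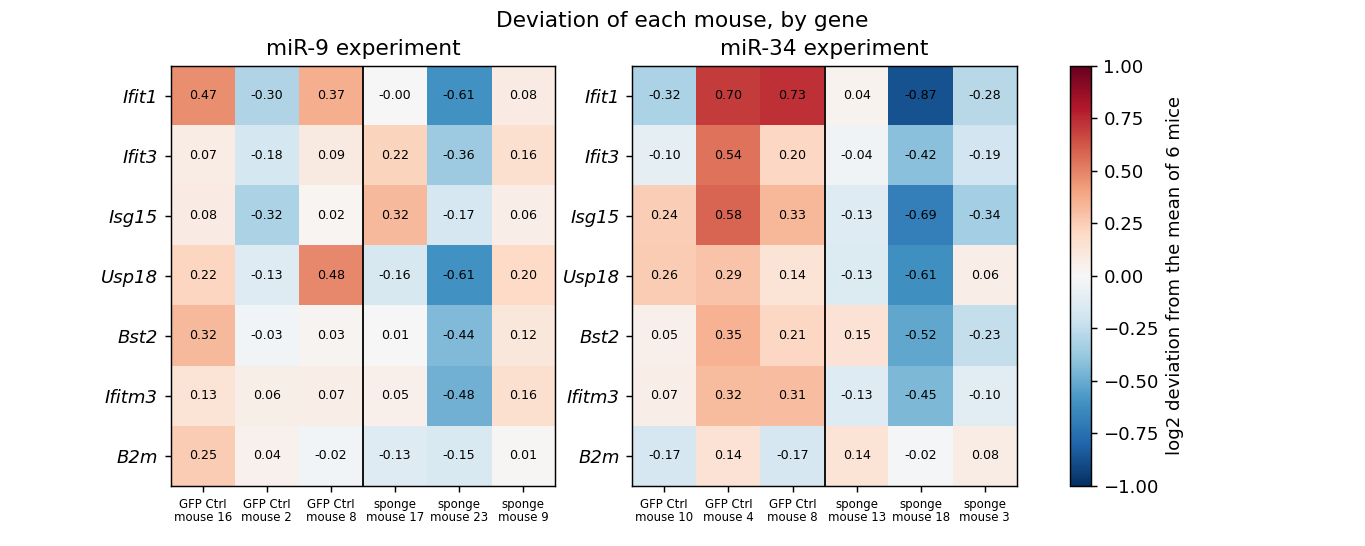
Colour and number give each mouse's log2(CPM + 0.1) minus the mean of the 6 mice of its experiment, for 7 genes (rows) and 6 mice (columns) per experiment, with a line between GFP Ctrl and sponge mice. GFP-miR-9sp mouse 23 is below 0 in all rows, from -0.61 to -0.15, and GFP-miR-34sp mouse 18 is below 0 in all rows, from -0.87 to -0.02.

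Co-variation was measured within each experiment over its 6 mice, on log2(CPM + 0.1). In the miR-9 experiment the 21 pairs of measured members had a median Pearson r of 0.752 (range -0.06 to 0.919) and a median Spearman rho of 0.6, and 7 pairs reached r of 0.8. Of all pairs of tested genes 3.17% did so. This median rests on GFP-miR-9sp mouse 23: without it the median r fell to 0.355, and without any other single mouse it lay between 0.710 and 0.793. The pair Bst2 and Ifitm3 had the highest r, 0.919 (exact permutation p = 0.0139, adjusted p = 0.0583 over 42 relations, rho = 0.886 with permutation p = 0.0333, adjusted p = 0.127, n = 6), and r was 0.929 without the 2 mice farthest from the median of Bst2. With all 6 mice Isg15 was the member least like the others, with a median r of 0.397. Without the 2 mice farthest from the median of the first gene of a pair, its r ran from 0.482 (Ifit1) to 0.991 (Ifitm3).

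In the miR-34 experiment the median r of the 21 pairs was 0.873 (range -0.164 to 0.961), the median rho was 0.771, and 12 pairs reached r of 0.8, against 3.05% of all pairs of tested genes. Leaving out 1 mouse gave medians from 0.719, without GFP-miR-34sp mouse 18, to 0.896. Isg15 and Ifitm3 had r = 0.961 (exact permutation p = 0.00417, adjusted p = 0.0583, rho = 0.943 with permutation p = 0.0167, adjusted p = 0.117, n = 6), and 0.873 without the 2 mice farthest from the median of Isg15. B2m stood apart here, with a median r of -0.02 to the other members, where it had 0.572 in the miR-9 experiment. No pair in either experiment passed adjustment over the 42 relations by the two-sided exact permutation test, although 6 pairs of the miR-9 and 12 of the miR-34 experiment had an unadjusted permutation p under 0.05. Without the 2 farthest mice of each pair the median r was 0.696 and 0.652, and 15 and 17 of the 21 pairs were positive both with all mice and without these 2. The 6 mice of an experiment include both groups, and after each group's mean was subtracted the median r was 0.755 in the miR-9 and 0.805 in the miR-34 experiment. Isg15 and Ifitm3 each had no overlap between the groups of the miR-34 experiment, so their r and permutation p include that group difference. The r of single pairs after this subtraction is not given here.

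**Figure D3:**
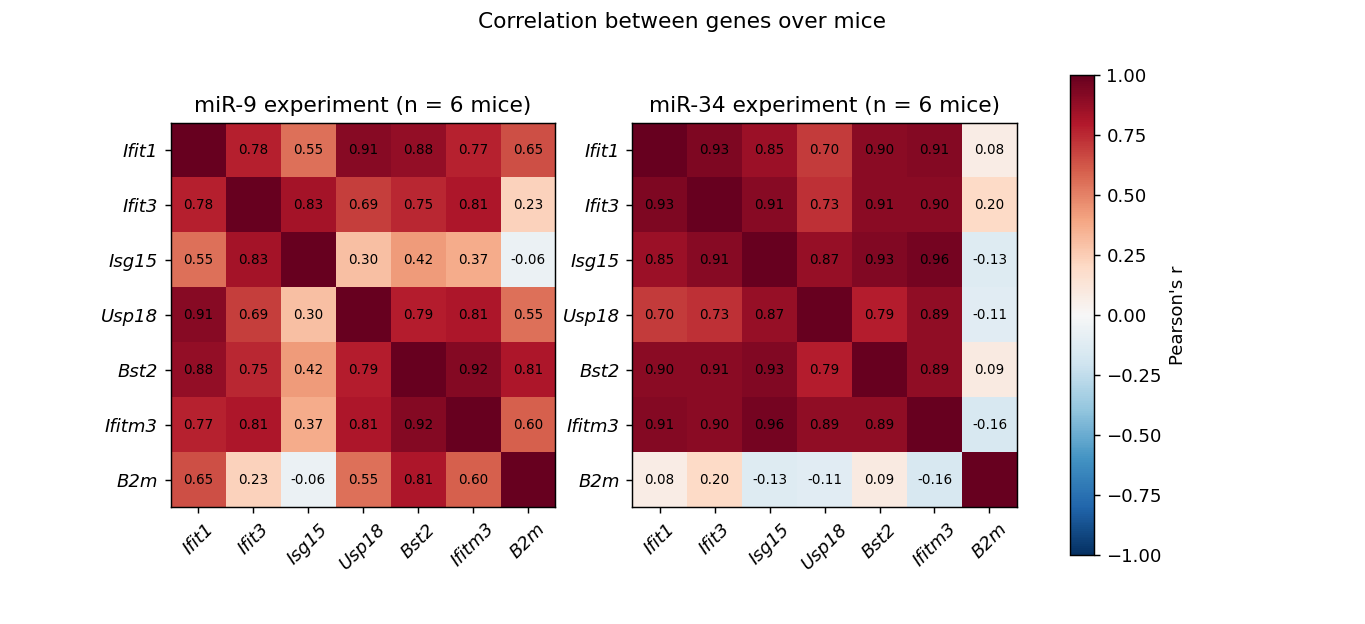
Pearson's r between pairs of interferon response genes over the 6 mice of each experiment (colour and number), from log2(CPM + 0.1). In the miR-34 experiment 12 of 21 pairs reach 0.8 and the B2m row lies between -0.16 and 0.20.

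Ifit1 varied most from mouse to mouse within groups, with an SD of 0.470 on the log2 scale where the median over 12700 genes was 0.106, and 3.09% of genes had a larger SD. The SD expected from read counting alone was 0.168 for Ifit1. Ifit3 (0.256, counting 0.0987), Ifitm3 (0.209, counting 0.107) and B2m (0.131, counting 0.0333) also varied beyond counting. The SDs of Isg15 (0.232) and Usp18 (0.31) were close to those from counting alone (0.248 and 0.285), so their spread between mice could not be told from read sampling at this depth.

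The genes most like the members were ranked by r with the mean of the 7 members over the 12 mice, after each group's mean was subtracted. Among 12693 genes the first were Crhr1, the receptor of corticotropin-releasing hormone (0.962), Abcd4 (0.952), Fn3k (0.948), Agpat5 (0.933), Psmb8 (0.924), Pmepa1 (0.918), Slc25a30 (0.916), Arl8a (0.915), H2-K1 (0.913) and 1700029J07Rik (0.909). Psmb8, a subunit of the immunoproteasome, and H2-K1, an MHC class I heavy chain, belong to the same pathway as the members. Pathway genes from the lists used here made up 0.654% of the genes ranked and 8 of the first 100. Of the 36 other interferon-stimulated effectors ranked, 34 had positive r, with a median of 0.528, and 13 of 14 genes of MHC class I presentation did, with a median of 0.613. The median over all genes was 0.02. Microglia markers had a median r of 0.573 (10 of 12 positive) and neuron markers a median of -0.38 (1 of 9 positive), and the part of cell make-up in the co-variation was not tested. The points share libraries and depth, and no p is attached to these r.

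With the GFP Ctrl mice of the miR-9 experiment as reference, no member passed the test after GFP-miR-9sp. None of the 12907 genes tested passed an adjusted p of 0.05 in edgeR's quasi-likelihood test (0%), where 614 had an unadjusted p under 0.05 and DESeq2 called 2. Of the 7 members 5 were lower and 2 higher, with a median log2 fold change of -0.19 beside -0.00 over all genes. Ifit1 had a log2 fold change of -0.36 (SE 0.23) and Usp18 of -0.37 (SE 0.26), while Isg15 had 0.16 (SE 0.21) and Ifit3 0.04 (SE 0.14). Bst2 had -0.21 (SE 0.18) and Ifitm3 -0.15 (SE 0.14). B2m was the 1 member with an unadjusted p under 0.05, at -0.19 (SE 0.07, edgeR adjusted p = 0.97), where 2.25% of all genes were lower and 2.5% higher at that limit. Its p was above the limit without GFP Ctrl mouse 16 or without GFP-miR-9sp mouse 17 or 23. No member had groups without overlap, while 4.89% of all genes were lower without overlap. The 95% interval of the log2 fold change of Ifit3 ran from -0.29 to 0.36.

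After GFP-miR-34sp, 6 of the 7 members were lower and B2m was higher, and none passed the test across all genes. The median log2 fold change of the 7 was -0.43, beside -0.00 over all 12364 genes tested. Isg15 had a log2 fold change of -0.75 (SE 0.22, edgeR adjusted p = 0.511), or 0.593 times the GFP Ctrl level with a 95% interval of 0.424 to 0.827. Ifitm3 had -0.44 (SE 0.12, edgeR adjusted p = 0.491) and Ifit1 -0.73 (SE 0.29, edgeR adjusted p = 0.718). Ifit3 had -0.43 (SE 0.15, edgeR adjusted p = 0.669). These are the 4 members with an unadjusted p under 0.05, all lower, at a limit that 3.7% of all genes passed as lower and 2.69% as higher. Isg15 and Ifitm3 kept a p under that limit whichever mouse was left out. The count of 4 fell to 2 without GFP Ctrl mouse 4 or GFP-miR-34sp mouse 18, which took out Ifit1 and Ifit3, and to 3 without GFP Ctrl mouse 8 or GFP-miR-34sp mouse 3, which took out Ifit1. Without GFP Ctrl mouse 4, B2m was higher at that limit (log2 0.24). Usp18 had -0.43 (SE 0.24) and Bst2 -0.36 (SE 0.19), with edgeR adjusted p of 0.842 and 0.834, and B2m had 0.13 (SE 0.08). Isg15, Usp18 and Ifitm3 had no overlap between groups, as had 5.88% of all genes in the lower direction. With 3 mice a side, exact permutation cannot give a p under 0.1. Across all genes 4 passed an adjusted p of 0.05 (0.0324%), all lower, where DESeq2 called 35 and edgeR without a read minimum 80. The number moved between 0 and 56 when 1 mouse was left out, with 56 without GFP Ctrl mouse 10 and 0 or 1 without any of the other 5 mice.

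**Figure D4:**
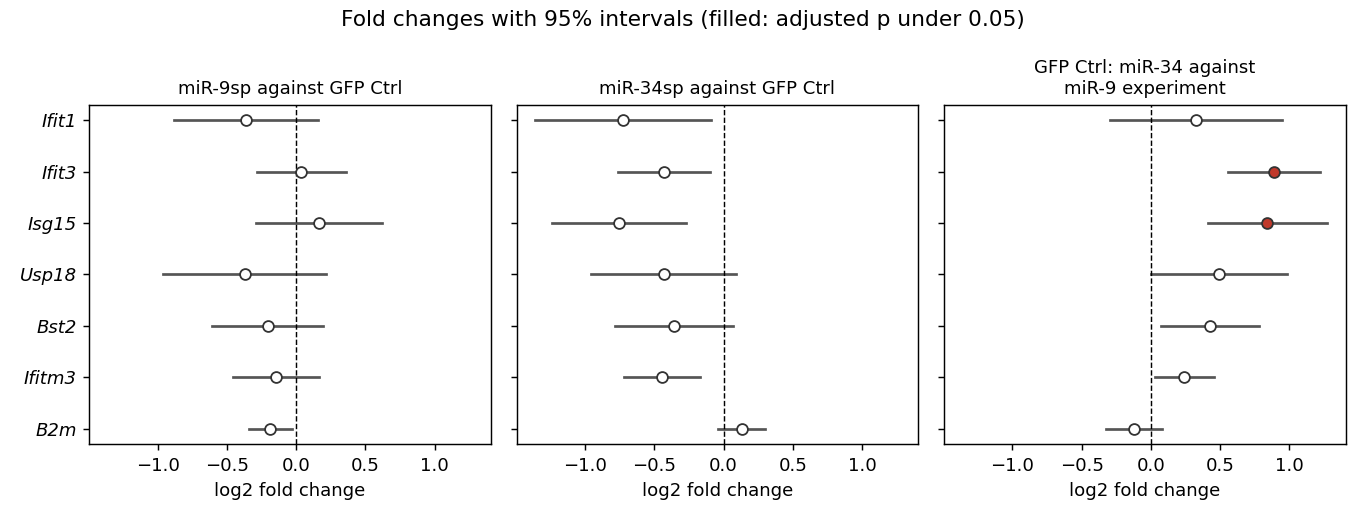
Log2 fold change (point) and 95% interval (line) of 7 interferon response genes by edgeR in 3 comparisons, with filled points for an adjusted p under 0.05. After GFP-miR-34sp 6 points lie below 0 without passing the limit. Between the GFP Ctrl sets Ifit3 (0.89) and Isg15 (0.84) pass it, as do 24.7% of all genes.

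Choroid plexus RNA was lower in the GFP-miR-34sp mice than in their GFP Ctrl mice, as were 6 of the 7 members by fold change, while B2m was higher. The summed level of the 12 choroid plexus markers was 685 to 2491 CPM in its GFP Ctrl mice and 85.9 to 172 in the GFP-miR-34sp mice, with Folr1 at 0 in every mouse. Ttr, the main secreted protein of that epithelium, was at 588, 1839 and 2220 in GFP Ctrl mice 10, 4 and 8 and at 105, 28.3 and 91.9 in GFP-miR-34sp mice 13, 18 and 3. Of the 10 markers measured 9 were lower with an unadjusted p under 0.05, and 3 with an adjusted p under 0.05. In the miR-9 experiment the sums ranged from 137 to 756 in GFP Ctrl and from 65.3 to 907 in GFP-miR-9sp mice. After each group's mean was subtracted, the 10 measured markers had a median r of 0.320 with the mean of the 7 members over the 12 mice. These r ran from 0.147 to 0.444, and none of the markers was among the first 100 genes. The part of this tissue in the interferon values was not tested. Summed microglia markers (Itgam at 0) were at 762 to 788 CPM in the GFP Ctrl and 722 to 759 in the GFP-miR-9sp mice, without overlap. Of the 12 measured, 10 were lower by fold change after GFP-miR-9sp, 1 of them with an unadjusted p under 0.05 in edgeR. In the miR-34 experiment the sums overlapped, at 717 to 776 in GFP Ctrl and 733 to 759 in GFP-miR-34sp mice. The part of microglia in the interferon values was not tested. Summed endothelial markers lay between 320 and 391 in all 12 mice (Ly6a and Tek at 0). Summed lymphocyte markers lay between 2.03 and 3.62, with Cd8a and Lck at 0 and none of the 16 above the read minimum. Monocyte and macrophage markers (F13a1, Ms4a7 and S100a9 at 0) did not overlap between the groups of the miR-34 experiment. Their sums were 31.9 to 37.4 in its GFP Ctrl mice and 27.1 to 31.4 in the GFP-miR-34sp mice. In the miR-9 experiment they overlapped, at 26.0 to 27.8 in GFP Ctrl and 20.6 to 29.2 in GFP-miR-9sp mice. Summed astrocyte markers overlapped in both experiments. All 10 astrocyte markers were lower by fold change after GFP-miR-34sp, 2 of them with an unadjusted p under 0.05 in edgeR.

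The GFP Ctrl mice of both experiments received a GFP vector without sponge sites. Between them 2 of the 7 members passed the adjusted limit, as did 24.7% of all genes, so this count is no result about the members. Ifit3 was 1.85-fold higher in the miR-34 experiment (log2 0.89, SE 0.15, edgeR adjusted p = 0.00158) and Isg15 1.79-fold higher (log2 0.84, SE 0.19, edgeR adjusted p = 0.0102), and both passed in every alternative that tested them (Isg15 falls below the higher read minimum). Usp18 (0.49, SE 0.22, edgeR adjusted p = 0.138), Bst2 (0.43, SE 0.16, adjusted p = 0.0764) and Ifitm3 (0.24, SE 0.10, adjusted p = 0.0944) did not pass. Ifit1 was at 0.33 (SE 0.28) and B2m at -0.12 (SE 0.09), with edgeR adjusted p of 0.443 and 0.386. Leaving out GFP Ctrl mouse 10 of the miR-34 experiment brought Ifitm3 to a log2 fold change of 0.32 with an adjusted p of 0.0426. The background was high: 24.7% of 12746 genes passed the adjusted limit, 19.5% were higher and 17.1% lower at the unadjusted limit, and 22.3% were higher without overlap, beside 5 of the 7 members. The paper gives a range of titers for the injected vectors and none per group. Experiment, processing, vector dose and animals cannot be told apart in this comparison, and it shares its miR-34 control mice with the sponge comparison above. The sums of choroid plexus markers differed in it as well, with all 10 measured markers higher and 7 of them at an adjusted p under 0.05. Summed astrocyte markers were also higher without overlap, at 3807 to 4034.5 CPM in the miR-34 set against 3517 to 3693. Of the 10 astrocyte markers 5 were higher at an adjusted p under 0.05. Monocyte and macrophage sums were higher without overlap too, at 31.9 to 37.4 against 26.0 to 27.8. The sums of microglia, endothelial and neuron markers overlapped.

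An interaction term over all 12 mice asked whether the sponge effects differed from each other. No gene of 12700 passed an adjusted p of 0.05 (0%), where 780 genes (6.14%) had an unadjusted p under 0.05 and DESeq2 called 5. Isg15 differed by -0.92 on the log2 scale (SE 0.29, edgeR adjusted p = 0.703), with the miR-34sp effect the lower one. B2m differed by 0.31 in the other direction (SE 0.12, edgeR adjusted p = 0.764), and its unadjusted p passed the limit of 0.05 only while GFP Ctrl mice 10 and 8 of the miR-34 experiment, GFP Ctrl mouse 16 and GFP-miR-34sp mouse 13 were all kept. The other 5 members had unadjusted p above that limit. A sponge effect that holds in one experiment and not in the other was therefore not shown for any member.

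The rest of the pathway was read from lists of its genes. No ligand was measurable: of 21 interferon genes 16 had 0 reads in all mice, among them Ifnb1, and Ifng had 1 read in 1 mouse. The receptor was present, with Ifnar1 at 73.7 to 82.1 CPM and Ifnar2 at 7.81 to 12.1. Stat2 was at 36.3 to 48.2, and Irf9, which has 3 entries, had 1 to 16 reads per mouse. For Ifnar1 the log2 fold change was -0.05 (SE 0.04) in GFP-miR-9sp mice and -0.04 (SE 0.05) in GFP-miR-34sp mice.

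After GFP-miR-9sp, 84 genes of the pathway were tested, and 11 were lower and 1 higher with an unadjusted p under 0.05, none of them after adjustment (edgeR adjusted p = 0.97 for each of those named here). H2-Ab1 (-0.85, SE 0.28) and H2-Eb1 (-0.58, SE 0.21), both MHC class II chains, were among the 11, as was the chemokine Cxcl10 (-1.33, SE 0.45). The MHC class I genes H2-Q4 (-0.44, SE 0.17), H2-K1 (-0.26, SE 0.10) and H2-D1 (-0.27, SE 0.12) were too. Ifi205 was the 1 on the higher side (0.66, SE 0.30). These are 13.1% lower and 1.19% higher, beside 2.25% and 2.5% of all genes. Of the 84 genes 61 (72.6%) were lower, beside 50.3% of all genes, and the median of the 84 was -0.07. The lists differed in this. Of the other interferon-stimulated effectors 31 of 36 were lower, of the receptor and signalling genes 6 of 11, and of the nucleic acid sensors and adaptors 8 of 15.

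After GFP-miR-34sp, 82 pathway genes were tested, of which 7 were lower and none higher with an unadjusted p under 0.05, and none passed adjustment. These were Lgals3bp (-0.35, SE 0.11), Ifit3b (-0.45, SE 0.16), Stat2 (-0.16, SE 0.07), the immunoproteasome subunit Psmb9 (-0.58, SE 0.24), Pdia3 (-0.08, SE 0.04), the guanylate-binding protein Gbp2 (-0.72, SE 0.32) and the RNA-activated kinase Eif2ak2 (-0.20, SE 0.09). Their edgeR adjusted p lay between 0.570 and 0.775. The 7 are 8.54% of the list, beside 3.7% of all genes lower at that limit. As after GFP-miR-9sp, 61 genes were lower (74.4%, beside 50.3% of all genes), here with a median of -0.08. Of the effectors 29 of 35 were lower, of the receptor and signalling genes 8 of 10, and of the sensors and adaptors 7 of 15. Of 83 pathway genes 72 had a positive r with the mean of the members, so these genes are not separate observations. The shares were not recomputed without single mice.

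Between the GFP Ctrl sets 86 pathway genes were tested, and 6 were higher and 2 lower at an adjusted p under 0.05. This share of 9.30% is below the 24.7% of all genes called in the same comparison, so the count is no result about the pathway. By direction, 27 of the 86 (31.4%) were lower in the miR-34 experiment, beside 49.4% of all genes, with a median log2 fold change of 0.10. Of the other interferon-stimulated effectors 8 of 37 were lower, and of the sensors and adaptors 8 of 15. The same miR-34 GFP Ctrl mice are the reference of the GFP-miR-34sp comparison, so the 2 shifts are not separate observations. Ifit3b was 2.06-fold higher in the miR-34 experiment (edgeR adjusted p = 0.00104), and H2-T23 (log2 0.64), Eif2ak2 (0.38), Ifi205 (1.32), Psme1 (0.26) and Phf11d (1.03) were higher with it. Traf6 (-0.20) and Socs3, a feedback inhibitor of cytokine signalling, (-0.55) were lower.

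Matches to the seeds of the sponged microRNAs were counted in the members' transcripts. The mature strands, from RefSeq, are shown with the seed, bases 2 to 8, in capitals.
mmu-miR-9-5p: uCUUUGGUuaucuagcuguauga
mmu-miR-34a-5p: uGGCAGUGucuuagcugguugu

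A match to the miR-34a seed was found in the 3′ end of 0 of the 9 members, where 14.0% of 19915 genes held one in their longest annotated 3′ end. A match to the miR-9 seed was found in 1 of the 9, Tap1, where 11.4% of all genes held one. Tap1 could not be measured, as given above. A match is a description of the letters and no match says only that the letters are not there. The members' 3′ ends were 139 to 519 bases long, except that of Ifit1 with 1152. The shares over all genes were not matched for length, so they do not tell whether the members hold fewer matches than similar genes.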

How the data were processed

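RNA from the hippocampi of 12 AAV-injected mice was sequenced by the authors as 50 bp single-end reads after poly-A enrichment. The deposited tables hold raw read counts per RefSeq transcript entry (32850 entries) with its length. The submitters' processing notes name STAR and mm10, whereas the methods name mm9, and the counting tool is not given in the sources used here. The GFP Ctrl mice of the miR-9 experiment were identified by elimination, since their titles name no experiment.

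Symbols were matched for 98.7% of entries, and counts were summed per symbol. Differences were tested with edgeR 4.0.16 (R 4.3.3) by the quasi-likelihood method with TMM factors, on genes with a mean scaled count above 10, with Benjamini-Hochberg adjustment over all genes. SEs are |log2 fold change| divided by the square root of F, and DESeq2 1.42.0 was an alternative. Correlations were tested exactly over 720 pairings; 36 pairs per experiment had been planned, but Irf7 and Tap1 could not enter, which left 21. The edgeR fit was tested on simulated data.

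The members and lists were chosen with earlier results of these data known. Genes were named by rule: the members, pathway genes with a low p (up to 12 per comparison), the 10 genes most like the members, the main ligand, receptor and signalling genes, Ifit3b, and the first markers of each list. An item that this rule takes in is not reported here. Intervals and limits from counts cover counting error only.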

Additional observations from a re-analysis of the deposited data

How the results depend on the processing

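Isg15 and Ifit3 kept an adjusted p under 0.05 between the GFP Ctrl sets under every alternative that tested them (Isg15 drops out above 100 reads). Under alternatives 375 member values kept direction and side of the limit, while 7 turned sign and 1 passed the limit (Ifitm3 between the GFP Ctrl sets). The count of genes after GFP-miR-9sp moved from 0 to 2 with DESeq2 and to 2 without a read filter, and leaving out 1 mouse gave 0 to 1. After GFP-miR-34sp it moved from 4 to 35 with DESeq2, 80 without a filter, 0 above 100 reads and 0 in 1 model of 12 mice, and leaving out 1 mouse gave 0 to 56. For the difference of sponge effects it moved from 0 to 5 with DESeq2 and 6 without a filter (0 to 1 leaving out 1 mouse), and between the GFP Ctrl sets it was 3152, with 2492 (DESeq2) to 3730 (total counts only) under other settings and 2241 to 2875 leaving out 1 mouse. The median r of pairs ranged over 0.355 to 0.793 and 0.719 to 0.896. Signs turned on leaving out 1 mouse for Ifit3 after GFP-miR-9sp (-0.0724 to 0.19), Ifitm3 after GFP-miR-9sp (-0.27 to 0.0162) and Usp18 in the difference (-0.24 to 0.17). The cause was not tested. Depth limits Isg15 and Usp18, with 13 to 47 reads per mouse. No paired analysis was possible because the groups compared share fewer than 2 mouse numbers.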
